A study of Mus musculus with 2 samples.

Results

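The genes described here are 10 early response genes, grouped under the name of attenuators. Such genes switch on within minutes of a stimulus, and the products of many, but not all, then damp signalling, RNA levels or growth. They are the dual specificity phosphatase genes Dusp1, Dusp2, Dusp5 and Dusp6, the immediate early response genes Ier2, Ier3 and Ier5, the antiproliferative gene Btg2, the RNA decay factor gene Zfp36 and the signalling inhibitor gene Spry2. They were chosen by gene symbol, and all 10 were found, each as a single row, among the 23961 gene symbols of the files. Each was at 1 FPKM or more in both libraries. FPKM, the unit of the files, expresses the fragments counted for a gene per length of transcript and per mapped fragments of its library.

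RNA came from sorted bone marrow haematopoietic stem cells. The donor mice were C57BL/6, untreated, and kept on regular chow under a light and dark cycle. One library carries the genotype label Per2wt (wild-type) and 1 the label Per2def (deficient in Per2, a gene of the circadian clock). The labels give neither the allele, the ages, the number of animals per library, the time of day nor the sort markers. Since each genotype has 1 library, nothing was replicated and nothing was tested, and every difference below is between these libraries and not between the genotypes.

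Early response genes are transcribed from factors already present in the cell, mostly after mitogen-activated protein (MAP) kinases such as ERK, p38 and JNK have been activated. Part of what they make is the brake on the same signal. Phosphatases of the DUSP family remove phosphate from the MAP kinases, Sprouty proteins act upstream between receptors and ERK, and ZFP36 and BTG2 bring the CCR4-NOT deadenylase to messenger RNAs and so shorten their life. The messages of these genes are themselves short-lived, and many hold AU-rich elements in the 3′ untranslated region, the kind of sequence that ZFP36 binds. In stem and progenitor cells of the blood some of these genes set limits on the response to growth factors and cytokines.

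The start regions of 4 members are shown because they hold the 2 sites best known for early response, the cyclic AMP response element (CRE), bound by CREB, and the CArG box, bound by serum response factor. Sequences are from the RefSeq promoter table (GRCm38.p6), which matched 9 of the 10 members and had no entry for Ier2. They are printed 5′ to 3′ on the strand of the gene. Capitals mark a CRE (TGACGTCA), a CArG box or an E-box (CACGTG, the site of the clock activator), and positions count back from the RefSeq start. The first 3 cover bases 247 to 48 before the start, and that of Zfp36 is limited to 30 bases. In the GENCODE M21 annotation the principal Zfp36 transcript starts further upstream, at 28380253. The Zfp36 stretch thus lies before the RefSeq start but inside the GENCODE transcript.
Dusp1 (chr17:26508520-26508719, minus strand): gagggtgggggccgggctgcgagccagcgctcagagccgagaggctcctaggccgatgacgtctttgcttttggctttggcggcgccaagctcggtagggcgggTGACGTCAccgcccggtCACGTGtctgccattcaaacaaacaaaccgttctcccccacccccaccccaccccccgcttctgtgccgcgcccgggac
Btg2 (chr1:134079203-134079402, minus strand): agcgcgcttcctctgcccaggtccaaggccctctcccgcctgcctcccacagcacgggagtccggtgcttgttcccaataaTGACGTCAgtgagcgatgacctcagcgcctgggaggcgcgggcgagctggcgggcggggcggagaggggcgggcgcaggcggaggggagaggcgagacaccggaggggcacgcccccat
Dusp5 (chr19:53528898-53529097, plus strand): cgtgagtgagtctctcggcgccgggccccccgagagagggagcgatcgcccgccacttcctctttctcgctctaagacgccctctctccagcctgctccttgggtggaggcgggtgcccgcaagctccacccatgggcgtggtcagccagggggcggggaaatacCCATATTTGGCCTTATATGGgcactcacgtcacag
Zfp36 (chr7:28379267-28379296, minus strand): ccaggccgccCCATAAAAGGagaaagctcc

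Dusp1 and Btg2 each held a full CRE, in Dusp1 from -143 to -136 and in Btg2 from -166 to -159, and 1.79% of all 32851 windows of 300 bases in the table hold one on either strand. Dusp5 held a pair of CArG boxes side by side, from -82 to -73 and from -72 to -63, and Zfp36 held 1 from -58 to -49, against 1.63% of all windows. An E-box stood in the windows of Dusp1 (from -126 to -121) and Dusp2 (from -109 to -104), against 7.15% of windows. The AP-1 site TGANTCA was in none of the 9 windows and in 7.81% of all. The hexamer CCGGAA, a strict form of the ETS site searched like the others on both strands, was in those of Zfp36 and Spry2, against 14.9%. The GC box GGGCGG was in 7 of 9, against 35.7%. The window of Dusp6 held none of these 6 motifs, though it does hold GGAA, the shorter core of ETS sites, which was not counted. A match is a stretch of letters and not a measured binding site.

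The 3′ ends of 6 members held the AU-rich heptamer TATTTAT, against 27.9% of 9816 measured genes with a 3′ untranslated region in GENCODE M21. In each sequence below, from the principal transcript of that annotation, capitals mark the heptamer, which is shown with 7 bases on either side.
Dusp1: tggtcctTATTTATttaacac
Zfp36: acgacttTATTTATtgtatta
Ier3: atttatgTATTTATgtatatc
Dusp2: cactttaTATTTATatagaac
Btg2: gaagagcTATTTATacatgtt
Spry2: taaagaaTATTTATttgaagt
Ier3 held 4 such heptamers, Dusp1 and Zfp36 held 3 each, Spry2 held 2, and Dusp2 and Btg2 held 1 each. In Dusp1 and Zfp36 a heptamer shown lies in the longer nonamer TTATTTATT, which 7.25% of measured genes hold. No heptamer was found in the 3′ untranslated regions of Dusp5, Dusp6, Ier2 and Ier5, although that of Ier5, at 2143 bases, is among the longest of the members.

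Before the members, the label was checked on Per2 itself. Its level was 1.96 FPKM under the label Per2wt and 6.16 FPKM under the label Per2def, so its RNA was higher, and not lower, where the label says deficient. Some deficient alleles still make RNA, and the allele here is not named. Directions below therefore follow the labels as given. Of the stem cell markers, Kit was at 42.7 and 43.6 FPKM, Meis1 at 20.7 and 20.4 FPKM and Hlf at 20.3 and 15.8 FPKM, and 9 of 12 reached 1 FPKM in at least 1 library, 3 of them higher and 6 lower in Per2def (median -0.02; 7 lower after median of ratios scaling). Slamf1, Hoxb5 and Fgd5, markers more specific to stem cells, were under 1 FPKM in both. Of 12 measured clock genes, Per2 included, 10 were higher (median 0.15, with 3 lower after median of ratios scaling). The 2 lower were Arntl, at 3.35 and 2.09 FPKM (-0.49), and Hlf, already counted among the stem cell markers. Among all genes reaching 1 FPKM in at least 1 library, 62% were higher and 38% lower, and 49.1% were lower after that scaling. The files give no read totals. From the most common ratio among 3232 low genes, the Per2def library was about 1.24 times as deep.

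Most members were lower in the library labelled Per2def, by small amounts. A difference is the log2(FPKM + 1) value in Per2def less that in Per2wt, which makes the change of a low gene look smaller than it is, and a fold is the plain ratio of FPKM. On that scale 8 of 10 members were lower, where 38% of the 11121 genes reaching 1 FPKM in at least 1 library were lower. The median over the members was -0.19, against 0.05 over all those genes. None was 1.5-fold lower on that scale (1.7% of all genes were, 0.725% without small and predicted RNAs) and none 2-fold lower (0.998%). At least 0.32 lower were 4, namely Dusp6, Dusp5, Ier5 and Btg2, against 4.38% of all genes, and no member was 0.32 or more higher, against 8.2%. Summed over the members the level was 144.4 FPKM in Per2wt against 131.8 FPKM in Per2def, a ratio of 0.913. In bulk RNA, fewer cells that express a gene and less RNA per cell cannot be told apart.

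The order of the members by level was nearly the same in both libraries. In Per2wt it ran Zfp36, Dusp1, Ier2, Dusp2, Dusp6, Ier3, Btg2, Dusp5, Ier5 and Spry2. In Per2def the one change was that Ier3 stood above Dusp6. The widest gap lay between the fourth and the fifth gene, 2.08-fold in Per2wt and 2.53-fold in Per2def. With 1 library each, the spread that would say which neighbours differ is unknown, and several neighbours were within 1.07-fold of each other, such as Dusp5 over Ier5 in Per2wt (1.07-fold) and Dusp1 over Ier2 in Per2def (1.05-fold). The 4 most abundant members summed to 107.7 FPKM in Per2wt against 102.5 FPKM in Per2def, a ratio of 0.951, and the other 6 to 36.7 and 29.3 FPKM, a ratio of 0.799.

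**Figure D1:**
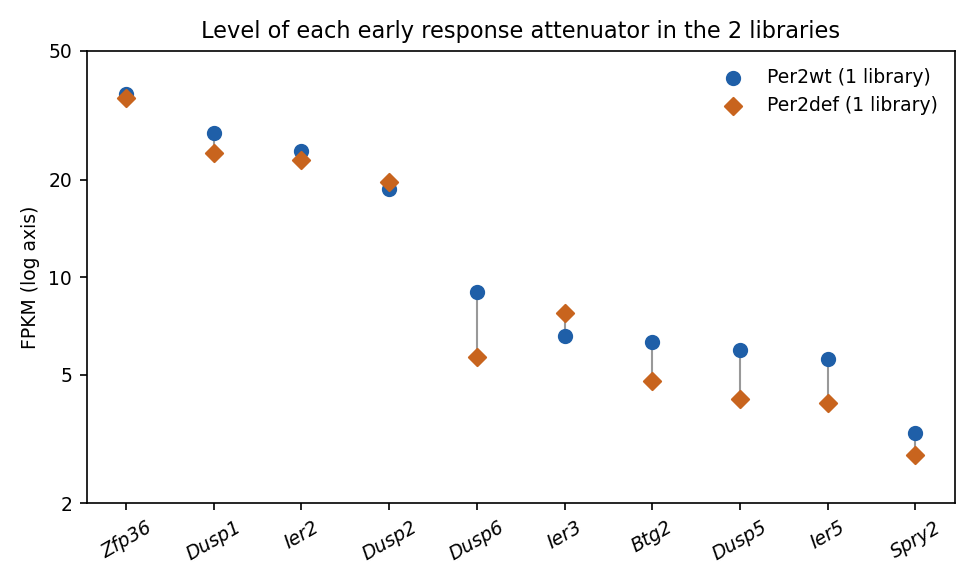
FPKM (log axis) of the 10 members in the library labelled Per2wt (circles) and the library labelled Per2def (diamonds), 1 library each, ordered by the Per2wt level. The 4 members on the left, at 18.7 FPKM or more, lie close together in both libraries, and Dusp6 shows the widest gap, from 8.97 to 5.68 FPKM.

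Among the phosphatases, the ERK-selective Dusp5 and Dusp6 were lower by more than Dusp1, and Dusp2 was close to equal. Dusp6 encodes the cytoplasmic phosphatase that acts on ERK and is itself made in response to ERK activity. Its level was 8.97 FPKM in Per2wt against 5.68 FPKM in Per2def, 1.58-fold lower, with a log2 difference of -0.58, the widest of the members. It lay just short of 1.5-fold on that scale and past it with a pseudocount of 0.5 FPKM or after median of ratios or upper quartile scaling. Of 2897 genes of like level (mean log2 within 0.5, without small and predicted RNAs) only 0.518% had a lower difference, and the middle 95% of them ran from -0.34 to 0.42. Dusp5, the nuclear ERK phosphatase that also holds ERK in the nucleus, was at 5.95 FPKM in Per2wt against 4.20 FPKM in Per2def, 1.42-fold lower (-0.42). Here 1.73% of 3014 genes of like level were lower. Together these 2 genes went from 14.9 to 9.88 FPKM, a ratio of 0.662.

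Dusp1 and Dusp2 encode nuclear phosphatases of wider reach, Dusp1 acting on p38 and JNK as well as ERK. Dusp1 was at 27.9 FPKM in Per2wt against 24.2 FPKM in Per2def (-0.20), with 8.66% of genes of like level lower. Dusp2, a phosphatase best known from activated blood cells, was at 18.7 FPKM in Per2wt against 19.6 FPKM in Per2def (0.07), close to the middle of genes of like level, 60.8% of which were lower. The pair summed to 46.6 and 43.8 FPKM, a ratio of 0.941. Ratios within a library do not depend on how the libraries are scaled. Dusp2 stood 2.08-fold above Dusp6 in Per2wt and 3.46-fold above it in Per2def, and Dusp1 stood 3.11-fold and 4.26-fold above Dusp6.

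The 3 IER genes went different ways. Ier5, which encodes a nuclear protein linked to heat shock factor and protein phosphatase 2A, was at 5.58 FPKM in Per2wt against 4.09 FPKM in Per2def (-0.37), with 2.56% of genes of like level lower. Ier2, its relative, was at 24.5 and 23.0 FPKM (-0.09), with 19.0% lower. Ier3, a regulator of survival and of ERK signalling that is not of the same protein family, had the highest difference of the members, at 6.59 FPKM in Per2wt against 7.76 FPKM in Per2def (0.21), with 84.1% of genes of like level lower. Ier3 and Dusp6, which exchanged places in the order, had a ratio of Dusp6 to Ier3 of 1.36 in Per2wt and 0.732 in Per2def.

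Of the factors that act on RNA, Btg2 was lower and Zfp36 nearly equal. Btg2, which slows the cell cycle, recruits deadenylase and is a target of p53, was at 6.31 FPKM in Per2wt against 4.79 FPKM in Per2def (-0.34), with 2.86% of genes of like level lower. Zfp36, which encodes tristetraprolin and was the most abundant member, was at 36.7 FPKM in Per2wt against 35.7 FPKM in Per2def (-0.04), with 29.1% lower. Spry2, the Sprouty member, was the least abundant, at 3.31 FPKM in Per2wt against 2.81 FPKM in Per2def (-0.18), with 10.8% lower. Its FPKM times its transcript length, which follows the number of fragments, was the lowest of the members, so its value carries the most counting error.

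**Figure D2:**
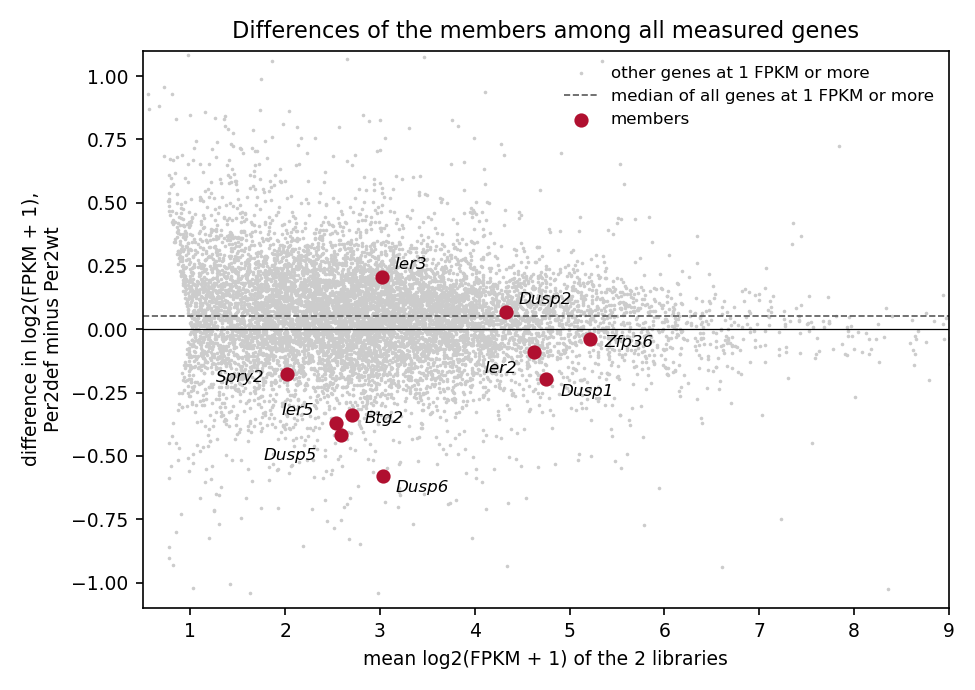
Difference in log2(FPKM + 1), Per2def minus Per2wt, against the mean log2(FPKM + 1) of both libraries, for the members (labelled points) and all other genes at 1 FPKM or more except small and predicted RNAs (grey; 101 of 10072 genes lie outside the axes). The dashed line is the median of all genes, 0.05, and Dusp6, Dusp5, Ier5 and Btg2 lie near or beyond the lower edge of the genes of like level, while Ier3 and Dusp2 lie above 0.

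The CRE, the CArG box and the E-box were each in the windows of 2 members, and whether they go with the differences was not tested. The CArG boxes stood before the RefSeq starts of Dusp5 (-0.42) and Zfp36 (-0.04), and the full CRE before those of Btg2 (-0.34) and Dusp1 (-0.20). The E-box stood before those of Dusp1 (-0.20) and Dusp2 (0.07). The CArG box of Zfp36 lies inside its GENCODE transcript. The member with the widest difference, Dusp6 (-0.58), had none of these sites in its window. By the AU-rich heptamer, the 4 members without it had a median difference of -0.39, from -0.58 (Dusp6) to -0.09 (Ier2), and the 6 with it had a median of -0.11, from -0.34 (Btg2) to 0.21 (Ier3). These ranges overlap, the grouping was made after the values were known, and it was not tested.

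Measured relatives of the members in 4 families were higher with the values as deposited. In these families (MAP kinase phosphatases, Sprouty and Spred, BTG and TOB, and ZFP36), 13 of 20 genes reached 1 FPKM in at least 1 library and all 13 were higher in Per2def with the values as deposited (62% of all genes were), with differences from 0.02 to 0.61. After scaling by the median of ratios Spred1, Spred3 and Tob2 were lower, and after upper quartile scaling Spred3 was. Of the relatives under 1 FPKM, Dusp9 (-0.07), Spry4 (-0.07) and, barely, Dusp10 were lower, Dusp8 (0.02) was higher and 3 were at 0 in both. The list of IER relatives was not pooled with these 4 families, and its 1 measured gene, Ier3ip1, was lower (-0.12). The phosphatases Dusp7, the nearest relative of Dusp6 and like it cytoplasmic and ERK-selective, at 4.17 FPKM in Per2wt against 4.86 FPKM in Per2def (0.18), Dusp4, a nuclear form, at 0.783 and 1.31 FPKM (0.37), and Dusp16, which prefers JNK and p38, at 0.940 and 1.30 FPKM (0.25), were the 3 others expressed. Dusp8, Dusp9 and Dusp10 were under 1 FPKM in both libraries. The ratio of Dusp6 to Dusp7 was 2.15 in Per2wt and 1.17 in Per2def.

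Btg3, an antiproliferative relative of Btg2, had the widest difference of the relatives, at 2.00 FPKM in Per2wt against 3.58 FPKM in Per2def (0.61). Btg1 was at 4.11 and 4.47 FPKM (0.10), Tob1 at 2.78 and 3.44 FPKM (0.23) and Tob2 at 11.0 and 11.4 FPKM (0.05), and Btg4 was listed at 0 in both. The ratio of Btg2 to Btg1 was 1.53 in Per2wt and 1.07 in Per2def.

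Zfp36l2, which is needed for blood stem cells and was the most abundant of its family, stood at 121.6 FPKM in Per2wt against 132.0 FPKM in Per2def (0.12), and Zfp36l1 at 6.66 and 7.01 FPKM (0.07). Zfp36l2 was thus 3.32-fold above Zfp36 in Per2wt and 3.70-fold above it in Per2def. Zfp36l3 was listed at 0.

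The Spred genes, which hold back RAF activation as the Sprouty genes do, were at 5.55 and 5.75 FPKM (Spred1, 0.04), at 5.48 and 6.29 FPKM (Spred2, 0.17) and at 1.12 and 1.15 FPKM (Spred3, 0.02), Per2wt first. Spry1 was at 1.20 and 1.33 FPKM (0.09), Spry4 under 1 FPKM and Spry3 listed at 0. Spry2 at 3.31 and 2.81 FPKM was thus the most abundant Sprouty gene in both libraries. Ier5l was at 0.771 and 0.517 FPKM (-0.22), under 1 FPKM in both, and Ier3ip1, named for binding Ier3, at 9.48 and 8.63 FPKM (-0.12). Of 8 measured atypical dual specificity phosphatases, smaller enzymes without the MAP kinase docking domain, 6 were higher and 2 lower (median 0.13). The share of all genes that were higher was 62%. Dusp3 was at 0.525 and 1.03 FPKM (0.41), Dusp12 at 5.28 and 6.65 FPKM (0.28) and Dusp28 at 1.79 and 2.32 FPKM (0.25). Dusp19, at 1.69 FPKM in Per2wt, was lower (-0.26).

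**Figure D3:**
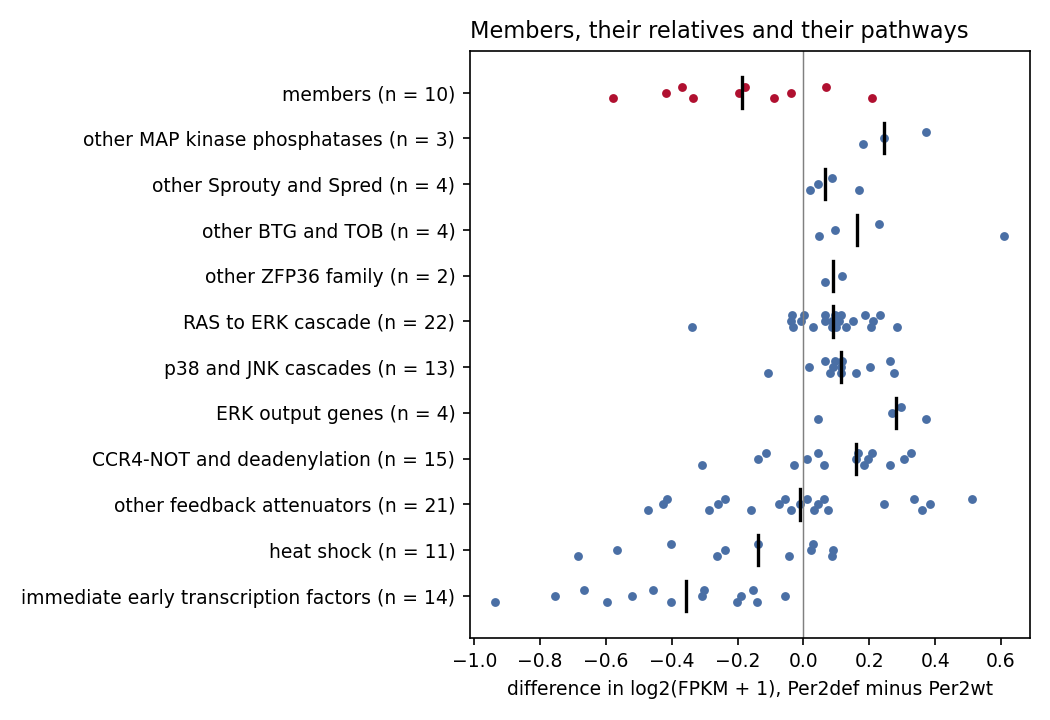
Difference in log2(FPKM + 1), Per2def minus Per2wt, of each measured gene (points) and the median (bars) for the members, their relatives and the pathway lists; vertical jitter has no meaning. The members (median -0.19), the heat shock genes (median -0.14) and the immediate early transcription factors (median -0.36) lie mostly left of 0. The 4 families of relatives shown lie right of it with the values as deposited, and the IER relatives are not shown.

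The kinase cascades that several of the members restrain differed little. Of 22 genes from RAS to ERK 17 were higher and 5 lower in Per2def (median 0.09), where 62% of all genes were higher. After median of ratios scaling 7 were lower, where 49.1% of all genes were. The widest differences were in the small GTPase gene Hras, at 7.39 FPKM in Per2wt against 5.64 FPKM in Per2def (-0.34), the adaptor gene Gab1 (0.28), the kinase gene Rps6ka3 (0.23) and the RAS inhibitor gene Nf1 (0.21). Of 13 measured genes of the p38 and JNK cascades 12 were higher (median 0.11; 2 lower after median of ratios scaling), the widest being Map2k4 (0.27) and Map2k6 (0.26). Of genes known to be made in response to ERK, beside the members, only 4 of 13 were at 1 FPKM or more, and all 4 were higher with the values as deposited, namely Dusp4, the transcription factor gene Etv5, at 2.76 and 3.61 FPKM (0.30), the cyclin gene Ccnd1, at 4.18 and 5.24 FPKM (0.27), and Spred1, which was lower after median of ratios scaling. Dusp4 and Spred1 were already counted among the relatives above. Egr1 and Fos, which also respond to ERK, are in the list of factors described next.

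The transcription factors induced together with the members were lower where they reached 1 FPKM. Of 14 measured immediate early factors 14 were lower in Per2def (median -0.36), against 38% of all genes, 7 of them by at least 0.32 (4.38% of all genes) and 4 at least 1.5-fold (1.7%). Of the 6 others, under 1 FPKM in both libraries, Maff, at 0.655 and 0.901 FPKM, and Fosl1 were higher. Egr1, a zinc finger factor, was at 26.9 FPKM in Per2wt against 13.6 FPKM in Per2def (-0.94), Nr4a1, a nuclear receptor, at 6.06 and 3.18 FPKM (-0.76), Fosb, a subunit of AP-1, at 28.4 and 17.5 FPKM (-0.67) and Klf4 at 3.39 and 1.90 FPKM (-0.60). No member had a difference as wide as these 4. Dusp1 was level with Egr1 in Per2wt, at a ratio of 1.04, and 1.78-fold above it in Per2def. The regulators that start this response, serum response factor and its partners with the CREB group, had 5 of 9 genes higher (median 0.02). With the values as deposited 62% of all genes were higher. After median of ratios or upper quartile scaling 3 of the 9 were higher. Srf was at 6.86 and 6.96 FPKM, Elk3 at 9.89 and 8.86 FPKM (-0.14), Elk4 at 11.6 and 12.7 FPKM (0.12) and Elk1 at 1.79 and 2.04 FPKM (0.12).

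Feedback genes of other pathways were split. Of 21 measured, 11 were lower and 10 higher (median -0.01), and 14 were lower after median of ratios scaling. The share of all genes that were lower was 38%, and 49.1% after that scaling. Ppp1r15a, which restarts translation after stress, was at 16.5 FPKM in Per2wt against 11.6 FPKM in Per2def (-0.47), Rgs1, a brake on G protein signalling, at 15.0 and 10.9 FPKM (-0.43) and Cish, a brake on cytokine receptors, at 1.62 and 0.967 FPKM (-0.42), whereas the growth arrest gene Gadd45g was at 0.795 and 1.56 FPKM (0.51).

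The partners and targets of the RNA decay members were also listed. Of 15 genes of CCR4-NOT and other deadenylation factors 11 were higher (median 0.16; 6 lower after median of ratios scaling). Of all genes 62% were higher, and 49.1% were lower after that scaling. Cnot6l (0.33), Parn (0.31) and Pan2 (0.26) were higher and Cnot11 (-0.31) lower. Of 16 reported targets of ZFP36 only 6 were at 1 FPKM or more, 5 of them lower (median -0.15), where 38% of all genes were. The chemokine gene Ccl3 was at 15.7 and 9.33 FPKM (-0.69), Vegfa at 5.30 and 3.52 FPKM (-0.48) and Myc at 67.2 and 60.3 FPKM (-0.15), while the exception was Ier3, itself a member. Myc was also counted among the immediate early factors, and another of the 5 among the feedback genes of other pathways, so these lists overlap. Of 12 measured p53 targets, the group that Btg2 is often counted with, 10 were higher (median 0.14), where 62% of all genes were. After median of ratios scaling 4 were lower, where 49.1% of all genes were. The widest were Zmat3 (0.47), Sesn2 (0.46), Tnfrsf10b (0.29) and Trp53inp1 (0.23).

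Heat shock genes and markers of other cells also differed between the libraries, and their part in the values of the members was not tested. Of 11 measured heat shock genes 7 were lower (median -0.14; 9 after median of ratios scaling). The share of all genes that were lower was 38%, and 49.1% after that scaling. Hspa1a was at 16.0 and 9.57 FPKM and Hsph1 at 16.0 and 11.9 FPKM. Hspa1a and Hspa1b are near copies and share reads. Of 9 measured neutrophil markers 8 were higher in Per2def, where 62% of all genes were. The list summed to 443.8 FPKM in Per2wt against 869.4 FPKM in Per2def, with S100a8 at 108.8 and 266.5 FPKM and Retnlg listed at 0 in Per2def. Of 11 T and NK cell markers 6 were measured and all 6 were higher (sum 37.8 and 47.8 FPKM, most of it Nkg7 at 23.7 and 28.4 FPKM). All 4 measured markers of monocytes and macrophages were higher too (49.9 and 64.8 FPKM). Erythroid markers (5 of 10 measured higher) summed to 718.5 and 693.4 FPKM, with globins lower, such as Hba-a1 at 193.0 and 114.5 FPKM and Hba-a2, a near copy that shares reads with it, at 67.8 and 9.50 FPKM, and Car1 higher at 177.3 and 293.7 FPKM. Megakaryocyte markers (3 of 8) summed to 47.9 and 37.9 FPKM, and most of that gap was Thbs1, at 8.70 and 0.996 FPKM. Dendritic cell markers (5 of 6) summed to 113.5 and 118.5 FPKM, most of it Flt3 at 48.8 and 51.4 FPKM and Bst2 at 40.2 and 36.5 FPKM. Mast cell and basophil markers (2 of 4, Fcer1a listed at 0 in Per2wt) summed to 227.2 and 213.8 FPKM. Most of that was Srgn, at 198.9 and 186.0 FPKM, which was lower, as was Gata2, at 22.5 and 18.6 FPKM. The 2 measured markers that were higher, among them Cpa3 at 3.87 and 4.86 FPKM, add little to that sum. Endothelial and stromal markers (3 of 4) summed to 18.2 and 20.3 FPKM. B cell markers summed to 6.94 and 6.55 FPKM, most of it the 1 measured marker Cd79b, which was lower, with Igll1 listed at 0 in both libraries, Ms4a1 in Per2wt and Pax5 in Per2def.

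Genes outside every list with the pair of values most like that of Dusp6 were Mcee, Tmem42, Tgtp1, Lcp2 and Ass1, by Euclidean distance of log2(FPKM + 1) over the 2 libraries. Only 3 of 9847 genes lay within 0.1 of Dusp6, the nearest being Mcee at 9.20 and 5.84 FPKM. Around Zfp36, the most abundant member, 34 genes lay as near, led by Dazap1 at 36.8 and 36.1 FPKM, with Ywhab, Ddost and Ndufs8 among the next. Likeness over 2 libraries says only that the levels are alike.

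The members lie on 8 chromosomes (GRCm38, GENCODE M21), so they are not a cluster, and the positions bear on how surely their reads can be told apart. Dusp6 (ENSMUSG00000019960.8) on chromosome 10 from 99263231 to 99267489, Dusp5 (ENSMUSG00000034765.6) on chromosome 19 from 53529109 to 53542431, Ier5 (ENSMUSG00000056708.5) on chromosome 1 from 155096361 to 155099636 and Btg2 (ENSMUSG00000020423.6) on chromosome 1 from 134075170 to 134079120 are the 4 lower by 0.32 or more. Dusp6 and Btg2 overlap no other annotated gene, nor do Dusp2, Ier2, Ier3, Ier5 and Spry2. Zfp36 (ENSMUSG00000044786.6) on chromosome 7 from 28376784 to 28380253 and Dusp5 each overlap 1 antisense gene without a row in the files, and the strand setting of the counting is not given. Dusp1 (ENSMUSG00000024190.7) on chromosome 17 from 26505590 to 26562128 has a long alternative transcript whose far end overlaps Ergic1 on the other strand, at 15.8 and 13.7 FPKM, while its principal transcript ends at 26508519, short of it. Ier2 and Ier5 are single exons in this annotation, and the other 8 members are spliced. The remaining members are Dusp2 (ENSMUSG00000027368.6) on chromosome 2 from 127336159 to 127338376, Ier2 (ENSMUSG00000053560.4) on chromosome 8 from 84661331 to 84662852, Ier3 (ENSMUSG00000003541.6) on chromosome 17 from 35821684 to 35822923 and Spry2 (ENSMUSG00000022114.5) on chromosome 14 from 105891947 to 105896819.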

How the data were processed

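RNA of 2 sorted stem cell libraries, 1 per genotype label, was extracted with TRIzol, selected for poly(A) and made into strand-marked libraries, per the labels' protocols. The authors deposited FPKM per gene symbol, per the file headers. As tools, the submitters' processing notes name Cufflinks beside CASAVA 1.8, TopHat, Bowtie2, GRCm38 and mm10. The annotation, the read filters and the use of strand are not given in these sources. The row Mir6236 took 71.3% of summed FPKM in Per2wt and 71.5% in Per2def, which, for so short a row, is not its share of fragments.

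Of 24487 rows per file, 9 without an estimate and 27 whose symbols had become dates were left out, and rows sharing a symbol were summed. Differences are log2(FPKM + 1), over genes reaching 1 FPKM in at least 1 library. Absolute depth is unknown, so no interval was set. The members, the 27 other gene lists and the rule for named genes (each member and measured relative, up to 4 widest genes of each other list, up to 3 abundant markers and those at 0, and the 5 genes nearest 2 members) were chosen with earlier results of these data known. Ratios between named genes, Srf, Slamf1, Hoxb5, Fgd5, Hba-a2, Maff, Fosl1 and the heptamer grouping were picked after the values were seen. Motifs and gene models came from RefSeq and GENCODE M21, computed with Python 3.11.15 and pandas 2.3.3. The steps were checked on simulated data. Alternatives were other scalings, pseudocounts, floors, fold thresholds and row choices. The cut of 0.32 on the log2 scale was not among the planned thresholds of 1.5-fold and 2-fold. Of the nearest genes, 1 is not reported here. No test was run.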

Additional observations from a re-analysis of the deposited data

How the results depend on the processing

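The number of members lower in Per2def was 8 of 10 under all 3 scalings (median of ratios, a fixed total without small and predicted RNAs, upper quartile), both other pseudocounts, no filter and the highest row per symbol, and 7 of 9 with a floor of 5 FPKM, which leaves out Spry2. The share of all genes that were lower, 38% as deposited, was 49.1% after median of ratios and 45.6% after upper quartile scaling, so the count stands against a higher background there. The scalings moved the median of all genes by -0.05, -0.01 and -0.03. The median over members ran from -0.19 to -0.23 and the summed ratio from 0.879 to 0.914. The 1.5-fold count of 0 is sensitive because Dusp6, at -0.58, stands just short of 1.5-fold: it was 1 after median of ratios scaling, 1 after upper quartile scaling, 1 with a pseudocount of 0.1 FPKM and 1 with 0.5 FPKM, and it was 4 at a threshold of 0.32 on the log2 scale. Of 79 values of single members under these alternatives 79 moved by less than 0.1 and none changed sign. No paired analysis was possible because each genotype has 1 library, and for the same reason no library could be left out. Unknown depth limits all values, those of Spry2 and Ier3 most.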
